A study of Mus musculus with 10 samples.

Results

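The immunity-related GTPases (IRGs) were examined as a family of 10 mouse genes, Irgm1, Irgm2, Igtp, Ifi47, Tgtp1, Tgtp2, Iigp1, Gm4951, Gm4841 and F830016B08Rik. The members were taken by gene symbol, and all 10 were found among the 24421 gene symbols shared by the 10 libraries. The RNA sequenced was that of sorted splenic Ly6C-high monocytes, taken from male mice of 8 to 10 weeks on day 5 after surgery. There were 3 libraries of WT (C57BL/6) mice after sham surgery, a thoracotomy without ligation (replicates 1, 2 and 3). There were 3 libraries of WT mice after myocardial infarction (MI) by permanent ligation of a coronary artery (replicates 2, 3 and 4), and 4 libraries of Foxp3DTR mice after MI (replicates 1 to 4). In Foxp3DTR mice the Foxp3 promoter drives a human receptor for diphtheria toxin, and the toxin then removes Foxp3+ regulatory T cells (Tregs), in this model only in part. The protocol gives 500 ng of diphtheria toxin per mouse on each of the 2 days before surgery and 250 ng on day 2 after it. By the study's description WT mice with MI also received the toxin, and for the WT sham mice it is not stated. There was no Foxp3DTR group after sham surgery, so depletion after MI cannot be told apart from depletion alone. The labels do not tie libraries to single mice, and p-values measure the spread between libraries. The study's display of these samples gives 4 animals per group, and only 3 libraries of WT mice after MI were available here.

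IRGs are large GTPases that interferon-gamma (IFN-gamma) induces in many mouse cells, macrophages among them, through its receptor and the kinases JAK1 and JAK2. The effector members, called GKS proteins after a motif of their GTP-binding site, load onto the vacuoles of intracellular pathogens such as Toxoplasma and help to break them. The regulatory members, called GMS proteins, sit on the cell's own membranes and hold the effectors in their inactive state. Here Irgm1, Irgm2 and Igtp (also Irgm3) were counted as regulatory and the other 7 members as effectors.

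Values are StringTie's TPM (transcript abundance per length, scaled to one total in every library) divided by a scaling factor per library, hereafter TPM, and can be compared between genes because they are per transcript length. Differences are between group means of log2(TPM + 1), which understates the change of genes near 0, and are called at an adjusted p below 0.05. The libraries hold an estimated 3.13 to 8.40 M reads each (median 6.64), and the 10 most abundant RNAs took 17.3 to 23.0% of the TPM in Foxp3DTR libraries, 24.8 to 30.3% in WT MI libraries and 20.6 to 24.2% in sham libraries. Markers of Ly6C-high monocytes were abundant in every library, with a sum over 10 genes between 23604 and 51028 TPM, which fits the label of the sort. Foxp3, the gene whose promoter drives the receptor, was at 4.95 ± 0.47 TPM (SD, n = 4) in Foxp3DTR MI libraries and at 4.47 ± 3.10 TPM (SD, n = 3) in WT MI libraries. A sort of monocytes does not show how far Tregs were depleted. Sham library 3 stood apart from the other WT libraries, since it was the highest WT library for 10 of 10 IRG members and for the summed markers of T cells (181 TPM, against at most 34.5 TPM in the others), NK cells (163 against 68.2), neutrophils (1390 against 601) and erythroid cells (197 against 55.4), and results that rest on it are given with and without it.

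Libraries of sorted monocytes of Foxp3DTR mice after MI held more IRG RNA than those of WT mice, in every library and for every member. The sum over the 10 members was 1515, 1590, 2108 and 1631 TPM in Foxp3DTR MI libraries 1 to 4. It was 384, 717 and 503 TPM in WT MI libraries 2, 3 and 4, and 526, 406 and 1006 TPM in sham libraries 1, 2 and 3. Foxp3DTR libraries thus did not overlap with either WT group. In a bulk sample, fewer cells with the RNA and less RNA per cell cannot be told apart, nor can RNA of monocytes and of other cells in the library.

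**Figure D1:**
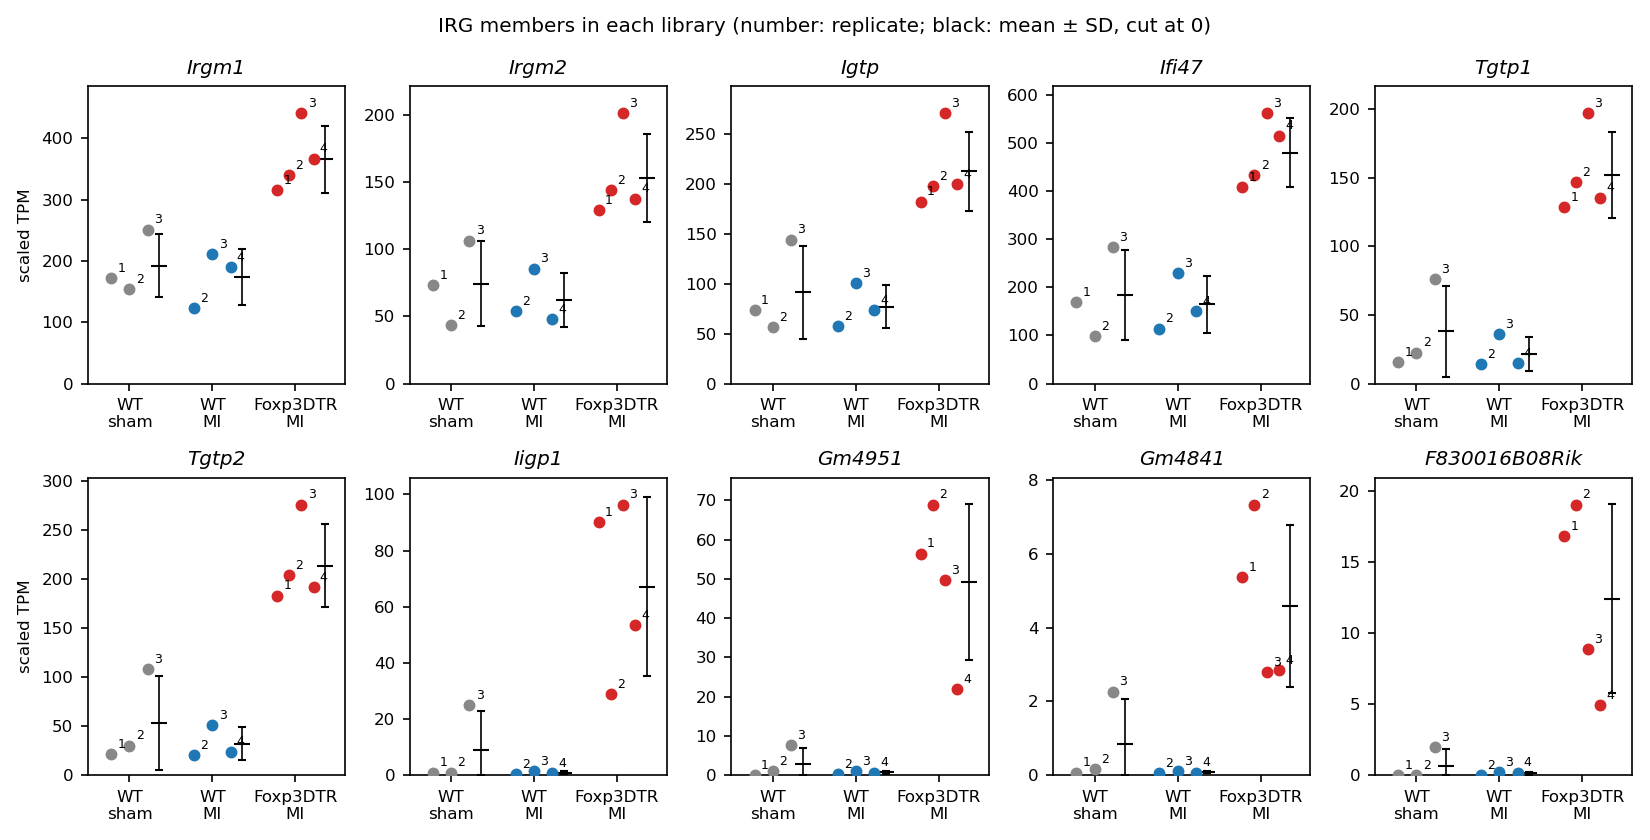
Level of each IRG member (scaled TPM, linear axis from 0) in each library of the 3 groups, with the replicate number beside each point and the mean ± SD of the group in black. All 4 Foxp3DTR MI libraries lie above all 6 WT libraries in every panel, and sham library 3 is the highest WT library in every panel.

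Against WT MI, 8 of the 10 members passed the test as higher in Foxp3DTR MI libraries, with a background of 0.688% of the 12938 tested genes called higher and 0.433% lower (1.12% in either direction). The groups did not overlap for 10 of 10 members, and 9.97% of all tested genes were non-overlapping and higher. All 10 differences were positive, as were 50.1% of those of all tested genes. The median difference over the members was 2.55 on the log2 scale, and that over all tested genes was 0.00080. Of the 10 members, 4 (Iigp1, Gm4951, Gm4841 and F830016B08Rik, all on chromosome 18) entered the test only through the Foxp3DTR libraries and so were bound to be higher there. Of the 6 on chromosome 11, which reached 1 TPM in every library, 4 were called. The calls lay close to the threshold. When any 1 of the 7 libraries of these groups was left out, 0 to 2 members were called, and the count over all genes fell from 145 to between 0 and 43. No member was called without WT MI library 2, WT MI library 3 or Foxp3DTR MI library 3. Only Gm4951 was called without WT MI library 4, Foxp3DTR MI library 1 or Foxp3DTR MI library 2, and Gm4951 and F830016B08Rik without Foxp3DTR MI library 4. In each of these 7 fits all 10 differences stayed positive with an unadjusted p below 0.05. Over all tested genes, 1617 to 2424 had such a p in these fits, and 2295 of 12938 with all libraries. The sham libraries entered the same fit and its estimate of the spread. Without sham library 1, 2 or 3 the members called were 6, 10 and 10, and the genes called over all were 127, 431 and 422.

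The regulatory members were abundant in all groups. Irgm1, which regulates effectors and takes part in autophagy and mitochondrial quality control, was at 315, 340, 441 and 367 TPM in Foxp3DTR MI libraries. Its levels were 123, 211 and 190 TPM after MI and 172, 154 and 251 TPM after sham surgery in WT mice. Its mean was 366 ± 54.6 TPM (SD, n = 4) against 174 ± 45.8 TPM (SD, n = 3) in WT MI libraries, a ratio of means of 2.10. Irgm1 was called higher, with a log2 difference of 1.09 ± 0.22 (SE, adjusted p = 0.0476), the smallest difference of the family.

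Igtp, a regulatory member on the endoplasmic reticulum and lipid droplets, reached 182, 198, 271 and 200 TPM in Foxp3DTR MI libraries. It was at 57.4, 100.4 and 73.8 TPM in WT MI libraries and at 73.4, 56.4 and 144 TPM in sham libraries. The log2 difference from WT MI was 1.47 ± 0.29 (SE, adjusted p = 0.0490), just inside the threshold. Irgm2, a regulatory member of the Golgi, was at 129, 144, 201 and 138 TPM in Foxp3DTR MI libraries against 53.6, 85.4 and 48.1 TPM in WT MI libraries. Its levels after sham surgery were 73.1, 43.6 and 106 TPM. The groups did not overlap, but the difference of 1.303 ± 0.29 (SE, adjusted p = 0.0597) missed the threshold.

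The effectors of chromosome 11 covered a wider range. Ifi47 (also Irgd) was the most abundant member in Foxp3DTR MI libraries, at 409, 434, 563 and 516 TPM. It stood at 114, 230 and 152 TPM in WT MI libraries and at 170, 98.0 and 284 TPM in sham libraries. WT libraries thus already held much of this RNA. Its log2 difference was 1.58 ± 0.33 (SE, adjusted p = 0.0516), which missed the threshold.

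Tgtp1 (also Irgb6), an effector that binds early to the vacuoles of parasites, was at 128, 147, 197 and 135 TPM in Foxp3DTR MI libraries. It was at 14.2, 36.1 and 14.9 TPM in WT MI libraries and at 15.5, 22.5 and 75.8 TPM in sham libraries. The ratio of means to WT MI was 6.99, and the log2 difference 2.86 ± 0.48 (SE, adjusted p = 0.0296). Its tandem copy Tgtp2 was at 183, 204, 276 and 192 TPM against 20.5, 51.0 and 23.8 TPM in WT MI libraries, with 21.5, 30.01 and 108 TPM after sham surgery. Tgtp2 was called too, at 2.81 ± 0.48 (SE, adjusted p = 0.0329).

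The pair cannot be read as separate genes. In GENCODE transcripts, 85.8% of the 50-base runs of Tgtp2 and 79.4% of those of Tgtp1 occur in the other gene, and the longest coding transcripts were 99.8% identical. The ratio of Tgtp2 to Tgtp1 was nearly constant, between 1.33 and 1.59 over the 10 libraries. With the pair summed into 1 feature, 7 of the then 9 members were called. The other members shared at most 11.8% of their runs with any other gene, the highest share being that of Igtp with Irgm2.

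The 4 effectors of chromosome 18 were close to 0 in most WT libraries and clearly present in all 4 Foxp3DTR libraries. Iigp1 (also Irga6), the best known effector of the family, was at 90.2, 28.7, 96.4 and 53.3 TPM in Foxp3DTR MI libraries. WT MI libraries held 0.391, 1.48 and 0.544 TPM, which the coverage translates into an estimated 2.598 to 12.6 reads. Sham libraries 1 and 2 were as low, at 0.818 and 0.872 TPM, whereas sham library 3 held 25.04 TPM. The log2 difference between Foxp3DTR and WT MI libraries was 5.14 ± 0.83 (SE, adjusted p = 0.0258), the largest of the family.

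Gm4951 was at 56.5, 68.9, 49.7 and 21.9 TPM in Foxp3DTR MI libraries and at 0.319, 1.03 and 0.632 TPM in WT MI libraries. In sham libraries it was listed at 0 in library 1 and was at 1.09 and 7.59 TPM in libraries 2 and 3. Its difference of 4.83 ± 0.63 (SE, adjusted p = 0.0151) had the lowest p of the family. F830016B08Rik was at 16.8, 19.0, 8.86 and 4.91 TPM in Foxp3DTR MI libraries. Among WT libraries it was listed at 0 in 3 (sham 1, sham 2 and MI 2), and the others held 0.221, 0.172 and, in sham library 3, 1.99 TPM. Its difference from WT MI was 3.41 ± 0.49 (SE, adjusted p = 0.0200).

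Gm4841 was the lowest member, at 5.36, 7.34, 2.79 and 2.84 TPM in Foxp3DTR MI libraries, or an estimated 18.01 to 55.7 reads. It was at 0.0491, 0.0998 and 0.0665 TPM in WT MI libraries, less than the worth of 1 read, and at 0.0669, 0.168 and 2.26 TPM in sham libraries. The difference was 2.30 ± 0.43 (SE, adjusted p = 0.0413). No ratio of means is given for the chromosome 18 members, since their WT MI levels rest on few reads.

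**Figure D2:**
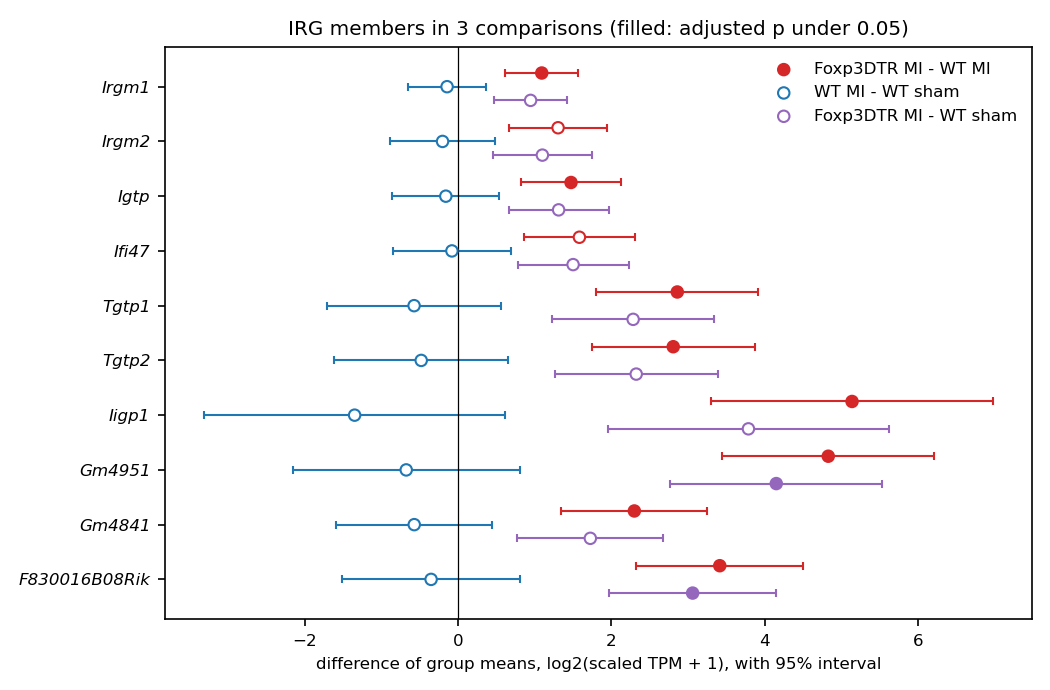
Difference of group means in log2(scaled TPM + 1) for each IRG member, with 95% intervals, in the 3 comparisons, which share libraries. Filled points have an adjusted p below 0.05. Differences between Foxp3DTR MI and WT MI run from 1.09 (Irgm1) to 5.14 (Iigp1), and all intervals of WT MI against WT sham include 0.

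The make-up of the family's RNA differed between the groups too. In Foxp3DTR MI libraries the summed effectors exceeded the summed regulators by a factor of 1.42, 1.33, 1.31 and 1.32. This ratio was 0.640, 0.808 and 0.615 in WT MI libraries and 0.651, 0.602 and 1.01 in sham libraries, so that regulators prevailed in 5 of the 6 WT libraries. The regulatory sum was 732 ± 126 TPM (SD, n = 4) in Foxp3DTR MI and 314 ± 81.3 TPM (SD, n = 3) in WT MI libraries. The effector sum was 979 ± 144 TPM against 220.5 ± 88.9 TPM.

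Chromosome 18 members made up 11.1, 7.80, 7.48 and 5.09% of the family's RNA in Foxp3DTR MI libraries. Their share was 0.198, 0.395 and 0.281% in WT MI libraries and 0.168, 0.523 and 3.66% in sham libraries. Within the Foxp3DTR group the members did not peak in the same library. Library 3 was highest for 7 members, the 6 of chromosome 11 and Iigp1, and library 2 was highest for the other 3. Iigp1 was lowest in library 2, where Gm4951, of the same cluster and strand, was highest. The ratio of Iigp1 to Gm4951 was accordingly 1.60, 0.417, 1.94 and 2.43 in Foxp3DTR MI libraries 1 to 4.

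**Figure D3:**
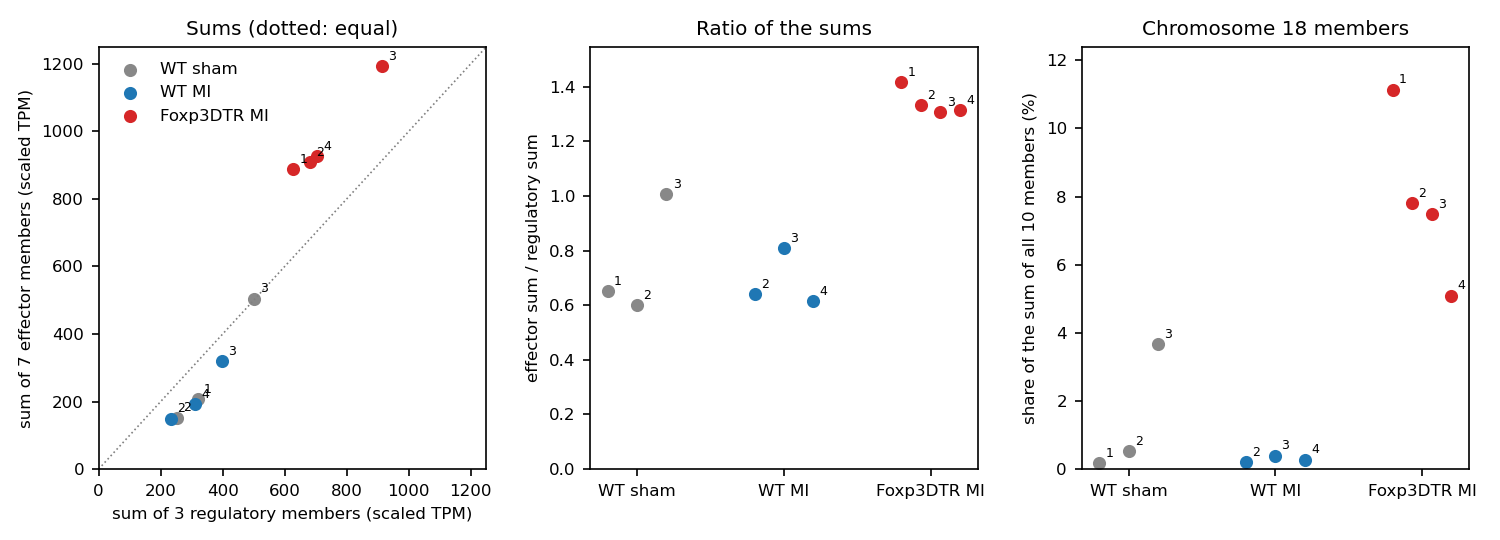
Left, sum of the 7 effector members against the sum of the 3 regulatory members (scaled TPM) per library, with equality dotted. Middle, the ratio of the sums. Right, the share of the 4 chromosome 18 members in the sum of all 10 members (%). The 4 Foxp3DTR MI libraries have ratios between 1.31 and 1.42 and shares between 5.09 and 11.1%, above all WT libraries.

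The members lie in 3 clusters of the mm10 genome, in the deposited coordinates. Irgm1 (chr11:48865249-48871346, minus strand), Tgtp1 (chr11:48985329-48992246, minus), Tgtp2 (chr11:49057196-49064212, minus) and Ifi47 (chr11:49076587-49096987, plus) span 232 kb. Igtp (chr11:58199556-58207592, plus) and Irgm2 (chr11:58214977-58222783, plus) span 23.2 kb. Gm4951 (chr18:60212077-60247820, plus), Gm4841 (chr18:60268301-60273267, minus), F830016B08Rik (chr18:60293380-60303016, plus) and Iigp1 (chr18:60376029-60392629, plus) span 181 kb. All are protein-coding genes. The median difference between Foxp3DTR and WT MI libraries was 2.19 for the first cluster, 1.39 for the second and 4.12 for that on chromosome 18.

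Genes within 100 kb of a member, without the IRG-related genes that are described further on, numbered 17, of which 14 were tested. None of the 14 was called by limma and 3 had an unadjusted p below 0.05, as had 2295 of all 12938 tested genes. The differences of the 14 ran from -1.43 to 1.31 with a median of -0.09. Olfr56, which overlaps Ifi47 and Tgtp2, differed by 0.66 (adjusted p = 0.451).

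The proximal promoters of the chromosome 11 members are shown because these genes differed in the same direction and because interferon-inducible promoters are known for a GAS site, the gamma-activated sequence, and an ISRE, the interferon-stimulated response element. RefSeq promoter windows (GRCm38.p6, 250 bases before to 50 bases after the gene start) matched 6 of the 10 members, all on chromosome 11. Both strands were searched for GAS as TTCNNNGAA and for ISRE as GAAA followed after any 2 bases by a further GAAA. Of 32851 windows of the same length, 8.30% held the first, 3.44% the second and 0.454% both. The first was found in 4 of the 6 members, the second in 5, and both in 4. The 80 bases around the matches follow, 5′ to 3′ on the gene's strand, with matches in capitals.
Igtp (chr11:58199477-58199556, plus): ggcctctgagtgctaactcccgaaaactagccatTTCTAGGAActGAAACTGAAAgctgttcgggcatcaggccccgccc
Irgm2 (chr11:58214868-58214947, plus): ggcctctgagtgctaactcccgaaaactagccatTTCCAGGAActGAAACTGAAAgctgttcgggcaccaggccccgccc
Tgtp1 (chr11:48992289-48992368, minus): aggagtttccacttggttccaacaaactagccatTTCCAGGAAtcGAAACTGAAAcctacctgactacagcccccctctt
Tgtp2 (chr11:49064248-49064327, minus): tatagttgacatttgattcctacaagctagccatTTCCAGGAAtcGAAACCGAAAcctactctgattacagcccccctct
Irgm1 (chr11:48871410-48871489, minus): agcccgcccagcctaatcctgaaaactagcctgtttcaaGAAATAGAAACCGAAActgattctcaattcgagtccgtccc

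In Igtp, Irgm2, Tgtp1 and Tgtp2 the same arrangement recurred, a GAS match followed after 2 bases by an ISRE match. The ISRE match began 34 bases before the RefSeq start in Igtp, 64 in Irgm2, 77 in Tgtp1 and 70 in Tgtp2. Irgm1 held a pair of overlapping ISRE matches, 30 and 24 bases before its start, and no GAS match. The window of Ifi47 held neither. The windows of Igtp and Irgm2 were 92.1% identical over 265 aligned bases and those of Tgtp1 and Tgtp2 74.0% over 285. Members with the same arrangement differed in size of response, from 1.303 (Irgm2) to 2.86 (Tgtp1) on the log2 scale, and Ifi47, with neither match, lay between them at 1.58. Outside the 10 members, the IRG-related gene Gm12185 had the same arrangement, with its ISRE match 75 bases before the start, and differed by 0.32 (adjusted p = 0.305). Gm12250, also IRG-related, held a GAS and 2 ISRE matches and was not called either. A match is a description of the letters in this window and shows no binding.

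WT MI against WT sham asked whether infarction by itself was accompanied by another IRG level. No member was called by limma, as was no gene among all those tested (0%), and no member had an unadjusted p below 0.05, against 600 of the 12938 genes. All 10 differences were negative (50.4% over all tested genes), from -0.08 (Ifi47) to -1.35 (Iigp1), with a median of -0.42, and adjusted p ran from 0.960 to 0.995. The sign rested on sham library 3. Without that library 8 of the 10 differences were positive, from 0.06 to 0.30, and those of Iigp1 and Gm4841 were -0.08 and -0.06. Without WT MI library 2 those of Igtp (0.03), Irgm1 (0.09) and Ifi47 (0.15) were positive. The 95% intervals in the fit with all libraries were wide, from -0.66 to 0.37 for Irgm1 and from -3.31 to 0.61 for Iigp1.

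Foxp3DTR MI against WT sham mixes genotype, toxin, depletion and surgery and shares libraries with both comparisons above. All 10 differences were positive (49% over all tested genes) and no member overlapped between the groups, as for 9.8% of all tested genes. The log2 differences ran from 0.94 (Irgm1) to 4.15 (Gm4951), with a median of 2.00. Only Gm4951 (adjusted p = 0.0348) and F830016B08Rik (3.06, adjusted p = 0.0382) were called, 2 of 10 members, with a background of 0.386% of genes called higher. Both entered the test only through the Foxp3DTR libraries. Library 3 was the highest sham library for each member, and without it all 10 members were called, with differences from 1.15 (Irgm1) to 5.06 (Iigp1). Without sham library 1 or sham library 2 no member was called, and the count was 0 or 1 without any other single library. For every member the order of the group means was Foxp3DTR MI, then WT sham, then WT MI, and the latter pair did not differ beyond its spread.

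Genes of the IFN-gamma pathway were compared by role, from lists that hold no IRG member. The ligand gene Ifng, named here outside the rule for named genes, was low in all libraries, at 0.303, 6.33, 1.16 and 2.26 TPM in Foxp3DTR MI, 0.701, 0.548 and 0 TPM in WT MI and 0, 2.73 and 4.69 TPM in sham libraries. Its groups overlapped, and its difference from WT MI was 1.05 (adjusted p = 0.439). The 12 genes of the ligand, the receptor and signal transduction had a median difference between Foxp3DTR and WT MI libraries of 0.22, and 0 were called lower. Of their differences 7 were positive and 5 negative, and 6 had an unadjusted p below 0.05. Both receptor chains were lower without being called, Ifngr1 at -0.43 (adjusted p = 0.196) and Ifngr2 at -0.30 (adjusted p = 0.213). Jak2, the kinase bound to the receptor chain IFNGR2, was at 139, 142, 138 and 129 TPM against 83.0, 82.5 and 81.8 TPM, a difference of 0.73 ± 0.08 (SE, adjusted p = 0.0151), and was called higher. Jak2 was called against WT sham as well, at 0.64 (adjusted p = 0.0209).

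Of 9 inhibitors of JAK-STAT signalling, 2 were called higher and 0 lower, against 0.688% and 0.433% of all tested genes. Socs1, the feedback inhibitor of JAK kinases, was at 30.5, 47.1, 60.6 and 47.2 TPM against 5.37, 6.88 and 5.48 TPM in WT MI libraries. Its difference was 2.74 ± 0.37 (SE, adjusted p = 0.0153). Cish, an inhibitor of STAT5 signalling, differed by 2.29 ± 0.42 (SE, adjusted p = 0.0413), at 4.52, 10.4, 7.24 and 6.29 TPM against 0.170, 0.752 and 1.03 TPM. Cish entered the test only through the Foxp3DTR libraries and so was bound to be higher there.

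The guanylate-binding proteins (GBPs), a second family of IFN-gamma-induced GTPases that act with IRGs at vacuoles, behaved most like the members. In Foxp3DTR MI against WT MI libraries 10 of 11 were called higher, against 0.688% of all tested genes, with a median difference of 2.52. Among those called, Gbp2b entered the test only through the Foxp3DTR libraries and so was bound to be higher there. Gbp9 (1.49, adjusted p = 0.0151), Gbp4 (3.63, adjusted p = 0.0151), Gbp11 (2.44, adjusted p = 0.0200) and Gbp8 (2.90, adjusted p = 0.0248) had the lowest p. No GBP was called in WT MI against WT sham. In Foxp3DTR MI against WT sham 6 were called higher, against 0.386% of all tested genes. Likeness to the family was measured on log2 values after subtraction of each gene's mean over the 10 libraries. It is the root mean square difference between the profile of a gene and the median profile of the members. The 5 genes with the smallest difference among all tested genes outside the family were Gbp11 (0.137), Gbp2b (0.191), Gbp5 (0.234), Gbp7 (0.234) and Gbp8 (0.305). This likeness is a description, and the libraries share group, depth and scaling.

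Of 6 tested genes related to the IRGs, limma called 0 in Foxp3DTR MI against WT MI libraries. An unadjusted p below 0.05 was found for 3 of them and for 2295 of all 12938 tested genes. Gm12250 (also Irgb10), an effector that acts on bacteria, was at 143, 152, 206 and 146 TPM against 43.6, 76.0 and 54.2 TPM. The groups did not overlap, but the difference of 1.49 ± 0.34 (SE, adjusted p = 0.0660) missed the threshold. Irgc1 had the next lowest p (-0.77, adjusted p = 0.198).

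The remaining lists gave few or no calls in Foxp3DTR MI against WT MI libraries. In that comparison 1.12% of all tested genes were called, and 2295 of 12938 had an unadjusted p below 0.05. Of 6 ubiquitin ligases and adaptors that mark vacuoles, 1 was called, Tax1bp1, at 264, 266, 293 and 276 TPM against 208, 192 and 193 TPM (0.47 ± 0.09, SE, adjusted p = 0.0452). Of 10 genes of LC3 and GABARAP conjugation, which IRG loading needs, limma called 0 and 0 had an unadjusted p below 0.05. The lowest p among them were those of Map1lc3a (-0.71, adjusted p = 0.293) and Atg7 (-0.17, adjusted p = 0.495). Of the 7 tested genes of type I interferon ligand, receptor and signal transduction, limma called 0 and 3 had an unadjusted p below 0.05, with the lowest p for Irf9 (-0.24, adjusted p = 0.213) and Stat2 (0.40, adjusted p = 0.259). Of 15 genes known above all for their response to type I interferon, limma called 0 and 4 had an unadjusted p below 0.05, and the median was 0.11. Ifi44 (1.58, adjusted p = 0.0516) had the lowest p among them and Rsad2 (-0.89, adjusted p = 0.156) the next. Over the 76 tested genes of the 8 lists, 15 were called, among them Cish and Gbp2b, which entered the test only through the Foxp3DTR libraries. This count was 0 without WT MI library 2, 1 without Foxp3DTR MI library 3, and 3 to 6 without any 1 of the other 5 libraries. In these 7 fits 0 to 43 of all tested genes were called.

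**Figure D4:**
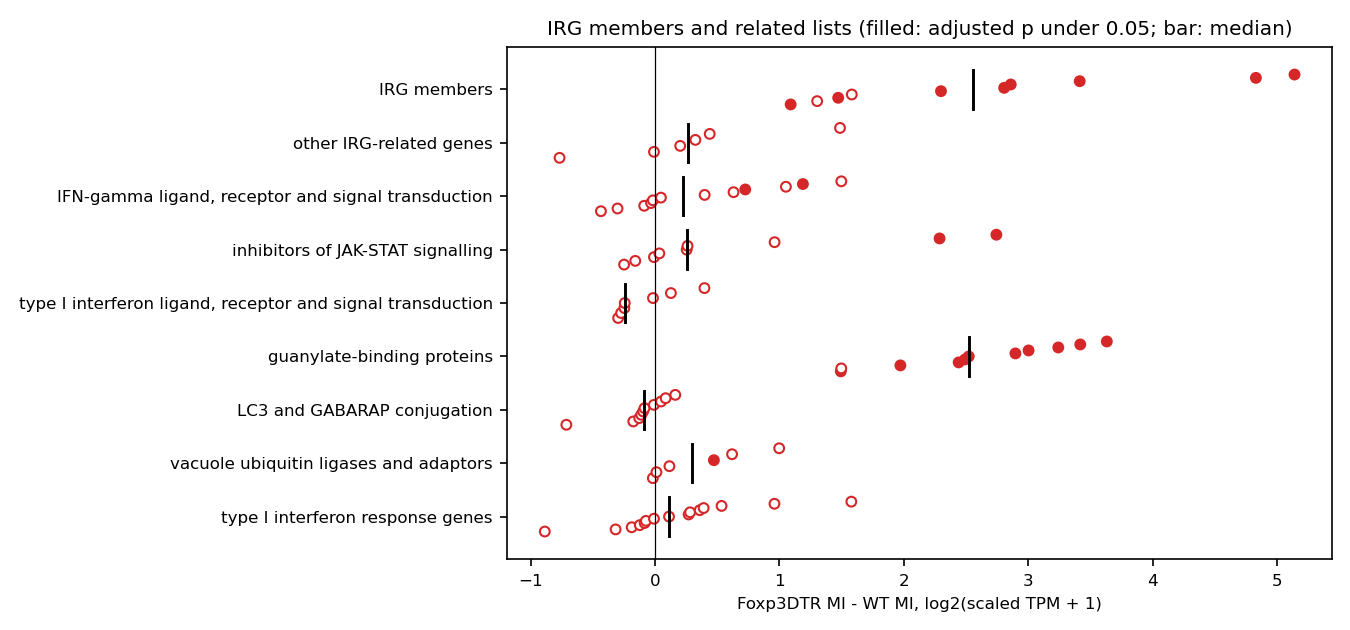
Difference between Foxp3DTR MI and WT MI libraries in log2(scaled TPM + 1), 1 point per tested gene, for the IRG members and 8 related lists. Filled points have an adjusted p below 0.05 and bars are medians. The medians of the IRG members (2.55) and of the GBPs (2.52) lie near each other, and those of the other lists lie between -0.24 and 0.29.

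Markers of T cells, NK cells and neutrophils were also at higher levels in Foxp3DTR MI than in WT MI libraries, without overlap of their sums. The sum over the 10 T cell markers found in the tables was 40.7 to 142 TPM in Foxp3DTR MI libraries, 17.1 to 19.7 TPM in WT MI libraries and 19.7 to 181 TPM in sham libraries. In the same order, 9 NK cell markers summed to 76.2 to 196, 26.1 to 68.2 and 51.8 to 163 TPM, and 13 neutrophil markers to 1246 to 2947, 213 to 601 and 362 to 1390 TPM. Means were higher in Foxp3DTR than in WT MI libraries for 10 of 10 T cell, 7 of 9 NK cell and 13 of 13 neutrophil markers. Of all tested genes, 50.1% had a positive difference and 9.97% were non-overlapping and higher. Called higher were 0 of 10 tested T cell markers, 1 of 8 NK cell markers (Gzmb) and 3 of 13 neutrophil markers (S100a9, Camp and Ngp). Over all tested genes, 0.688% were called higher. Of the defining markers, Cd3e, Cd3g and Cd8b1 were listed at 0 in 1 WT MI library each and Cd4 in sham library 1. Camp, Ltf and Mmp9 were at 0 in 2 of 3 WT MI libraries and Cxcr2 in 1, Retnlg was at 0 in all 3, and Klra4 was at 0 in 9 libraries and Klra8 in 1. Monocyte markers summed to 23604 to 37838 TPM in Foxp3DTR MI and 42210 to 46802 TPM in WT MI libraries.

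Sham library 3 was the highest WT library both for the members and for these marker sums. Across groups the order was not the same. Foxp3DTR MI library 1 had lower T cell, NK cell and neutrophil sums than sham library 3. They were 40.7 against 181 TPM for T cells, 76.2 against 163 TPM for NK cells and 1246 against 1390 TPM for neutrophils. All 10 members were higher in the Foxp3DTR library. This is 1 pair of libraries. In Foxp3DTR MI libraries 2, 3 and 4 the neutrophil sums (2143, 1577 and 2947 TPM) were above that of sham library 3. The libraries also differ in genotype and surgery, and the part of other cells was not tested. With a covariate made of the T cell and NK cell markers, all 10 differences from WT MI were positive, with a median of 1.45, but none was called and 8 had an unadjusted p below 0.05. With neutrophil markers the median was 1.85, none was called and 6 had an unadjusted p below 0.05. With the RNA share taken by the top 10 genes the median was 2.20, none was called and 8 had an unadjusted p below 0.05. Since none of these quantities overlapped between Foxp3DTR MI and WT MI libraries, their part in the result cannot be told apart from that of the group. In these covariate fits, in the same order, 564, 658 and 954 of all 12938 tested genes had an unadjusted p below 0.05. The genes called were 0, 1 and 0.

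**Figure D5:**
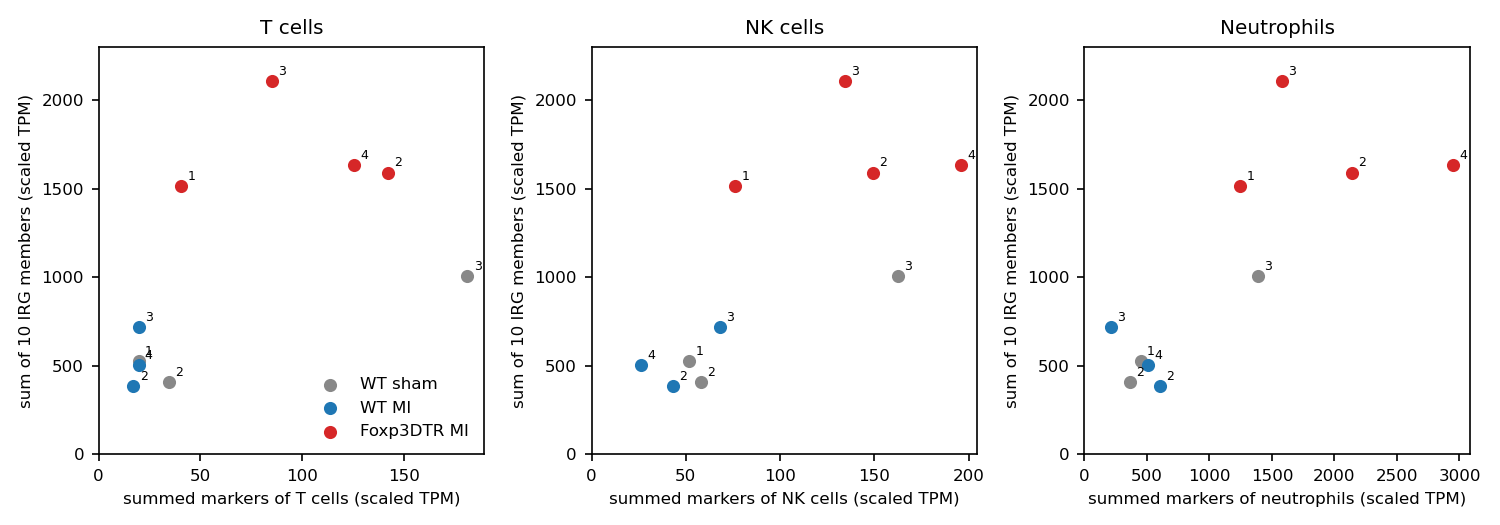
Sum of the 10 IRG members against the summed markers of T cells, NK cells and neutrophils (scaled TPM, linear axes from 0) in each library, with the replicate number beside each point. The 4 Foxp3DTR MI libraries (1515 to 2108 TPM of IRG members) lie above sham library 3 (1006 TPM). The highest T cell marker sum is that of sham library 3 (181 TPM). The highest NK cell and neutrophil sums are those of Foxp3DTR MI library 4 (196 and 2947 TPM).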

How the data were processed

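RNA of Ly6C-high splenic monocytes (after depletion of T and B cells, sorted on CD11b, F4/80, CD115 and high Ly6C, without Ly6G) was sequenced in 10 libraries made from 20 to 50 pg of RNA each, as 50-base single reads. Per the submitters' processing notes, CASAVA 1.4, cutadapt 1.1, STAR 2.5 and StringTie 1.3.0 were used with mm10. The deposited tables, made by the authors with StringTie, give per gene the coverage (mean read depth, the signal used to estimate reads), FPKM and TPM, and no read counts, so count models could not be used. No column was left out (0). The sources used here do not say whether strand was used, and reads of overlapping genes cannot be told apart.

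Rows of 1 gene symbol were summed. Each library's TPM was scaled by median of ratios, and 1 TPM was added before log2. Genes with at least 1 TPM in 3 or more libraries were kept. All 10 libraries entered 1 fit of 3 group means in limma 3.58.1 (R 4.3.3) with a variance trend, and two-sided p-values were adjusted by Benjamini-Hochberg over all 12938 genes, with a threshold of 0.05. The script was checked on simulated data. The self-built estimates of reads are coverage times transcript length divided by read length, and depth is from the ratio of coverage to FPKM. They limit precision for members near 0. The 3 comparisons share libraries.

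The text names all 10 members and, of each related list, at most 4 called genes in order of p, or the 2 genes of lowest p where none was called. It also names the 5 genes most like the family, Foxp3 and, of the marker lists, genes listed at 0. A called gene of 1 list is not reported here. Ifng, Ifngr1, Ifngr2, Gzma, Ncr1, Klrb1c and the called marker genes were named after their values were seen. Members and lists were chosen with earlier results of these data known, and 7 of the 10 members were labelled in the study's own display of these samples, so their direction is not independent evidence. Alternatives were other scaling, FPKM, pseudocounts of 0.1 and 5 TPM, no filter or 5 TPM, other variance models, a replicate block and each library left out. Fits with marker sums, RNA share or depth as a covariate, and with Foxp3DTR MI library 1 alone, were added after the data were seen. Sequences and gene starts are from RefSeq GRCm38.p6, and shared 50-base runs from GENCODE transcripts of GRCm38.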

Additional observations from a re-analysis of the deposited data

Results flagged for a closer look

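A single library stood apart within the Foxp3DTR MI group in 8 of 102 groups of 4 values, by Dixon's ratio of the gap to the range, and chance gives about 1 in 20. The effector sum had a gap ratio of 0.875, with library 3 at 1194 TPM above 889 to 927 TPM in the others. Gm12250, an effector outside the 10 members, had 0.850, with library 3 at 206 TPM above 143 to 152 TPM. Library 3 also stood above the others for Ifit2 (0.839) and Rsad2 (0.841). Library 1 stood below the others for Isg15 (0.831, 48.7 TPM against 83.2 to 90.2 TPM) and for the dendritic cell marker sum (0.837, 165 TPM against 172 to 174 TPM). Library 4 was below the others for Oas2 (0.921, 217 TPM against 235 to 237 TPM). For 9930111J21Rik1, an IRG-related gene, library 4 held 91.2 TPM while the other 3 were listed at 0, a gap ratio of 1.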

How the results depend on the processing

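Of the 10 members, 8 were called in Foxp3DTR MI against WT MI libraries, but 1 without a filter on low values, 5 without a variance trend, 0 to 10 with 1 library left out, and 0 with T cell and NK cell markers, neutrophil markers or the share of abundant RNA as a covariate, or with Foxp3DTR MI library 1 alone. Under the same alternatives the 15 calls of the related lists became 4, 8, 0 to 20 and 0. With library 1 alone, that library is assumed to vary like the other groups, and 8 members were tested, 7 with an unadjusted p below 0.05. The median difference of 2.55 became 1.62 with a pseudocount of 5 TPM and 1.45 with the T cell and NK cell covariate. No member changed direction in this comparison under any alternative run. Against WT sham, the 2 member calls became 0 with a pseudocount of 0.1 TPM, without the filter or with only these groups, 1 without a variance trend, 3 with a replicate block and 0 to 10 with 1 library left out. The 7 calls of the lists became 11 with FPKM, a pseudocount of 5 TPM or array weights, 3 with a pseudocount of 0.1 TPM or no variance trend, 2 without the filter, 1 with only these groups, 4 with robust variance and 0 to 17 with 1 library left out. The lists also gave 10 at a filter of 5 TPM. In WT MI against WT sham, where no gene was called, leaving out 1 library gave differences from -0.45 to 0.22 for Igtp, -0.30 to 0.087 for Irgm1, -0.54 to 0.10 for Irgm2, -0.47 to 0.30 for Ifi47, -1.03 to 0.079 for Tgtp1, -0.94 to 0.20 for Tgtp2, -1.37 to 0.18 for Gm4951 and -0.62 to 0.17 for F830016B08Rik. The causes of these changes were not tested.

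Unscaled TPM moved the median difference of all genes between Foxp3DTR and WT MI libraries to 0.22 and the calls to 488 higher and 39 lower, against 89 higher and 56 lower, and all 10 members were called, at 1.33 to 5.29. Counts over all genes, 145 in the reported fit, were 527 unscaled, 583 with only these groups, 398 with array weights, 248 with depth as a covariate, 81 with the replicate block, 74 without a variance trend, 22 without the filter and 0 to 431 with 1 library left out. They were 0 with T cell and NK cell markers, 1 with neutrophil markers, 0 with the share of abundant RNA and 6 with Foxp3DTR MI library 1 alone. Same-numbered libraries did not deviate together (correlations of -0.19 to 0.19 over 8 pairs, 1 over 0.1, and 3 of 10 libraries closest to their own number), so the numbers were not read as pairs. The replicate block gave 8, 0 and 3 member calls in Foxp3DTR MI against WT MI, WT MI against WT sham and Foxp3DTR MI against WT sham, and 16, 0 and 5 calls of the lists, with member medians of 2.66, -0.39 and 2.07. In Foxp3DTR MI against WT MI the members called were not the same: under the block Irgm2 (adjusted p = 0.0314) and Ifi47 (0.0261) passed and Gm4841 (0.101) and F830016B08Rik (0.0522) did not.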

Other observations

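Markers of other spleen cells gave the following sums in Foxp3DTR MI, WT MI and WT sham libraries in turn. B cell markers summed to 10.02 to 16.1, 15.99 to 20.5 and 17.1 to 29.3 TPM, plasma cell markers to 441 to 532, 392 to 448 and 318 to 650 TPM, and erythroid markers to 7.36 to 25.8, 5.64 to 8.67 and 7.32 to 197 TPM. Dendritic cell markers summed to 165 to 174, 174 to 266 and 211 to 269 TPM, and red pulp macrophage markers to 32.5 to 80.3, 48.0 to 64.6 and 56.3 to 128 TPM. Igtp and Irgm2, neighbours whose promoter windows were 92.1% identical, kept a ratio of 1.35 to 1.45 in Foxp3DTR MI libraries and 1.07 to 1.53 in WT MI libraries.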
